A study of Mus musculus with 12 samples.

Results

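The 10 genes described here are those for cytoplasmic actin itself, for proteins that bind its monomers or take filaments apart, and for proteins that cross-link filaments or tie them to the membrane. They are Actb, Actg1, Cfl1, Cfl2, Pfn1, Actn1, Actn4, Ezr, Msn and Evl, taken by symbol from a table of 45706 mouse genes. Each of the 10 matched 1 row, and all 10 passed the filter on low counts. Polyadenylated RNA was sequenced from 12 mouse T cell libraries in 4 groups of 3. The groups were conventional T cells (con) and regulatory T cells (Trg) of wild-type mice (WT), and the same cell types of mice labelled as a Coro1-/- knockout (KO) of the gene for coronin 1A. The labels give no strain, age, sex, sort gate, treatment or knockout construct, and do not say whether the 3 libraries of a group came from separate animals. If they did not, the p-values below measure only the spread between these libraries, which may be technical.

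Actin exists as single molecules and as filaments, and T cells move, form synapses with other cells and hold their receptors in place by exchanging one for the other. Cofilins sever and depolymerise filaments, profilin loads monomers with ATP and hands them to elongating filament ends, alpha-actinins bundle filaments, and ezrin and moesin link filaments to membrane proteins. Coronin 1A is an actin-binding protein of blood cells, and the comparisons ask how the levels of these partner genes differed when its gene was deleted. Actin genes are textbook targets of serum response factor, which senses the pool of free actin monomers through its partner MRTF.

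Libraries held 19686870 to 33404302 counts in genes, the lowest being WT Trg replicate 1. Levels are given in CPM, counts divided by library size to a common total, with library sizes scaled by TMM, a method that assumes most genes do not change. Coro1a itself stood at 2295 ± 149 CPM in WT con (SD, n = 3) and 45.2 ± 1.8 in KO con. It stood at 2509 ± 200.2 CPM in WT Trg and 26.7 ± 5.1 in KO Trg, so its RNA was much lower in all 6 KO libraries. Some reads remained, at 1450 to 1652 counts per KO con library and 669 to 999 per KO Trg library. Regulatory T cell markers (5 genes, Foxp3 among them) summed to 128 to 183 CPM in WT con and to 250.2 to 414 in KO con. They summed to 1658 to 1923 CPM in WT Trg and 1434 to 1943 in KO Trg, which follows the cell type labels. Lat, Cd6, Cd5 and the 3 CD3 chain genes, 6 genes of T cells in all, summed to 3063 to 3352 CPM in WT con, 1949 to 2316 in KO con, 1683 to 2323 in WT Trg and 1083 to 1663 in KO Trg. Markers of other cells were detected in every group, with none of any list at 0. Macrophage and monocyte markers (15 genes) summed to 540.0 to 757 CPM in WT con, 2265 to 4658 in KO con, 1678 to 1999 in WT Trg and 1799 to 3328 in KO Trg. B cell markers (11 genes) summed to 518 to 651 CPM in the con groups and to 10178 to 12416 in the Trg groups. Reads mapping to several places, which are tallied apart and not counted for a gene, made up 9.25% to 11.1% of reads in con and 15.8% to 19.5% in Trg libraries. In 2 libraries, WT Trg replicate 3 and KO Trg replicate 1, reads of Xist and of Y-linked genes were both present, at over 100 each. Without these 2 libraries the same members were called in 4 of the 5 comparisons. For the difference of knockout effects Actb was gained (edgeR adjusted p = 0.0445) and Msn lost (0.0753). Replicates 1 and 2 of both con groups held 37143 to 61031 Xist reads and 0 or 1 Y-linked reads. Replicate 3 held 16890 Y-linked and 14 Xist reads in WT con, and 14998 and 6 in KO con. The remaining Trg libraries held 5462 to 9538 Y-linked and 0 to 50 Xist reads. The mix of these reads thus differed between con and Trg libraries, and its part was not tested.

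Upstream sequences are shown for 3 members, from RefSeq at build GRCm38.p6, because Actg1 was called higher and Ezr lower in KO in both cell types and Actn1 differed most between cell types. The RefSeq table had a window for 9 members (all but Actb), 10 windows in all, with a second window for Evl. Within 250 bases before the RefSeq start, both strands were searched for 5 motifs: the CArG box, at which serum response factor binds, the cyclic AMP response element TGACGTCA, the TATA box as TATAAA, the CCAAT box, and the GC box as GGGCGG. Capitals mark every match, on either strand, and each sequence is written 5′ to 3′ on the gene's strand and stops before the gene's outermost annotated start. Copies of GGGCGG can overlap each other, as they do in Actg1.
Actg1, chr11:120348543-120348745, minus strand: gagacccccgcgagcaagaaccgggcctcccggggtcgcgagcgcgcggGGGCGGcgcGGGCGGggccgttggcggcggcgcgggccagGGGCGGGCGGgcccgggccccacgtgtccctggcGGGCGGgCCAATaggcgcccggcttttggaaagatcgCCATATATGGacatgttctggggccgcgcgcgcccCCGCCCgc
Ezr, chr17:6782785-6783030, minus strand: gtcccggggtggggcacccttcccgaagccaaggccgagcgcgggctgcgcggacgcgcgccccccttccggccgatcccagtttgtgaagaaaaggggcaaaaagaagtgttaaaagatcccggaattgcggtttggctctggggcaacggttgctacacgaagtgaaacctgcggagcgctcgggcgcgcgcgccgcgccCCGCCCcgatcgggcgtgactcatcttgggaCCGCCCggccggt
Actn1, chr12:80260372-80260613, minus strand: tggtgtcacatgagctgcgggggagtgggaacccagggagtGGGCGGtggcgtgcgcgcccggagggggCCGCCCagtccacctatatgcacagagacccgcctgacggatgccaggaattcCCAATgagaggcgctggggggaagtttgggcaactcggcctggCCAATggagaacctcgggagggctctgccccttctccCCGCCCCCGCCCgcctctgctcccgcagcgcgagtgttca
A CArG box was found in 1 of the 9 members, Actg1, at bases -90 to -81 before the RefSeq start, which lies past the end of the stretch printed, and in 1.47% of all 32851 windows. TGACGTCA was found in 0 of 9 members and in 1.55% of windows, and TATAAA in 0 of 9 and 12.4%. CCAAT was found in 4 of 9 members and 33.8% of windows, and GGGCGG in 8 of 9 (all but Cfl1) and in 32.7%. The shares count each window, while a member was counted once for a match in any of its windows. The second Evl window held no match. These are matches of letters and were not tied to binding by any measurement here.

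Levels were also put on a scale of CPM per kilobase of exon, with all annotated exons of a gene joined as its length. That length can exceed the transcript in use, and the loss of reads mapping to several places can differ by gene. On this scale Actb ranked first in every group and Cfl2 last. Actb, beta-actin (chr5:142903115-142906754), had 2263 ± 120.0 CPM per kilobase in WT con (SD, n = 3), 4.18 times the next member, the profilin gene Pfn1. In WT con the order was Actb, Pfn1, Cfl1, Msn, Ezr, Evl, Actn1, Actg1, Actn4 and Cfl2, and no 2 neighbours in that order overlapped between libraries. The spread between libraries does not measure the limits by gene, and the means of Ezr and Evl differed by only 1.03 times. In KO con Ezr stood in the seventh place instead of the fifth, behind Evl and Actg1, again with no overlap between neighbours. In WT Trg, Cfl1 and Pfn1 overlapped, as did Evl and Actg1, and Actn1 stood in the ninth place. In KO Trg, Pfn1 and Cfl1 overlapped, and Actg1 stood in the fifth. The 10 genes together took 1.11% to 1.35% of all gene counts. Actb alone made up 46.6% to 48.1% of the members' reads in WT con, 50.2% to 50.9% in WT Trg, 52.9% to 53.8% in KO con and 54.6% to 56.5% in KO Trg, and these ranges did not overlap.

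**Figure D1:**
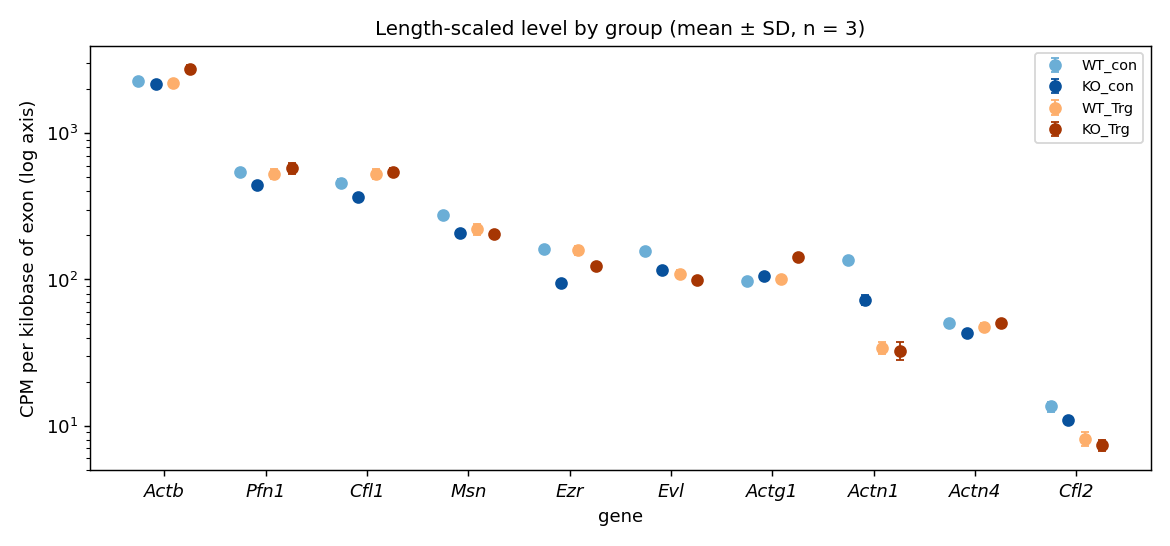
Level of each member in CPM per kilobase of exon (log axis) as mean ± SD of 3 libraries, coloured by group. Actb stands at the top and Cfl2 at the bottom in all 4 groups, and Actn1 and Ezr change place between groups.

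The genes of actin itself come first. Actb stood at 5691, 6259.5 and 6235 CPM in the WT con libraries and at 5954, 5723 and 5737 in KO con. Its WT Trg libraries held 6225, 5769.8 and 5643 CPM, and KO Trg 6820.4, 7565 and 7664. The 3 KO Trg libraries lay above all 9 others, which overlapped one another. Actg1, gamma-actin (chr11:120345690-120348542), encodes a protein nearly identical to beta-actin. It stood at 255, 263 and 259 CPM in WT con, 291, 271 and 286 in KO con, 274, 259 and 275 in WT Trg, and 375, 368 and 396 in KO Trg. KO con lay above WT con without overlap, and KO Trg above all other libraries. Sequence shared with processed copies is a limit on both genes, since such reads fall into the tally of several places. The rows of the related sequences Actbl2 and Actg-ps1 held 29 and 17 counts over 12 libraries. Shared reads are not counted in such rows either, so these counts do not show how many reads Actb and Actg1 lost.

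The genes of monomer binding and filament disassembly came next. Cfl1, the cofilin of non-muscle cells (chr19:5490455-5495201), stood at 1216, 1322 and 1369 CPM in WT con and at 1047.5, 1041 and 1028 in KO con. Its levels in WT Trg were 1613, 1504 and 1384 CPM and in KO Trg 1452, 1516 and 1647. KO con was the lowest group, below every library of the other 3 groups. Pfn1, profilin 1 (chr11:70651850-70654644), stood at 1219, 1332 and 1356 CPM in WT con, 1085, 1082 and 1047 in KO con, 1353, 1285 and 1159 in WT Trg, and 1267, 1393 and 1505 in KO Trg. KO con was again below every other library, and the other 3 groups overlapped. Cfl2, the muscle-type cofilin (chr12:54858809-54862877), had the fewest reads, 430 to 1403 per library. It stood at 46.9, 45.7 and 40.2 CPM in WT con, 36.3, 37.2 and 34.1 in KO con, 23.3, 27.8 and 28.7 in WT Trg, and 26.4, 22.4 and 23.3 in KO Trg. The con groups lay above the Trg groups, and within Trg the genotypes overlapped.

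Among the cross-linkers, Actn1 varied most of all members. Actn1, alpha-actinin 1 (chr12:80167547-80260371), stood at 745, 767 and 759 CPM in WT con and at 429, 412 and 364 in KO con. The WT Trg libraries held 205, 169 and 190.3 CPM and KO Trg 208, 175 and 159. The Actn1 groups formed 3 levels, WT con, KO con and both Trg groups. Actn4, alpha-actinin 4 (chr7:28893248-28962340), the other non-muscle member of the family, stood at 303, 308 and 318 CPM in WT con and 267, 267 and 261 in KO con. In WT Trg it stood at 306, 269 and 292 CPM and in KO Trg at 318, 307 and 298. KO con was the lowest group for Actn4 too.

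Ezr and Msn encode ezrin and moesin, close relatives whose active forms hold the membrane to the filaments beneath it. Ezr (chr17:6738041-6782784) stood at 535, 527 and 531 CPM in WT con and at 317, 318 and 305 in KO con. In WT Trg it stood at 555, 479.8 and 524 CPM and in KO Trg at 409, 413 and 399. Both KO groups lay below both WT groups without overlap. Msn (chrX:96096042-96168552) stood at 1736, 1727 and 1777 CPM in WT con, 1301, 1318 and 1311 in KO con, 1513, 1259.9 and 1409 in WT Trg, and 1334, 1334 and 1245 in KO Trg. WT con alone stood apart for Msn, and the other 3 groups overlapped. Evl (chr12:108554720-108688516) encodes an Ena/VASP protein that elongates filaments with profilin-bound actin. It stood at 457, 454 and 466 CPM in WT con, 350.2, 348 and 329 in KO con, 339, 319 and 303 in WT Trg, and 279, 302 and 289 in KO Trg. WT con stood apart, KO con and WT Trg overlapped, and KO Trg lay just below WT Trg, its highest library at 302.4 against 303.0.

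**Figure D2:**
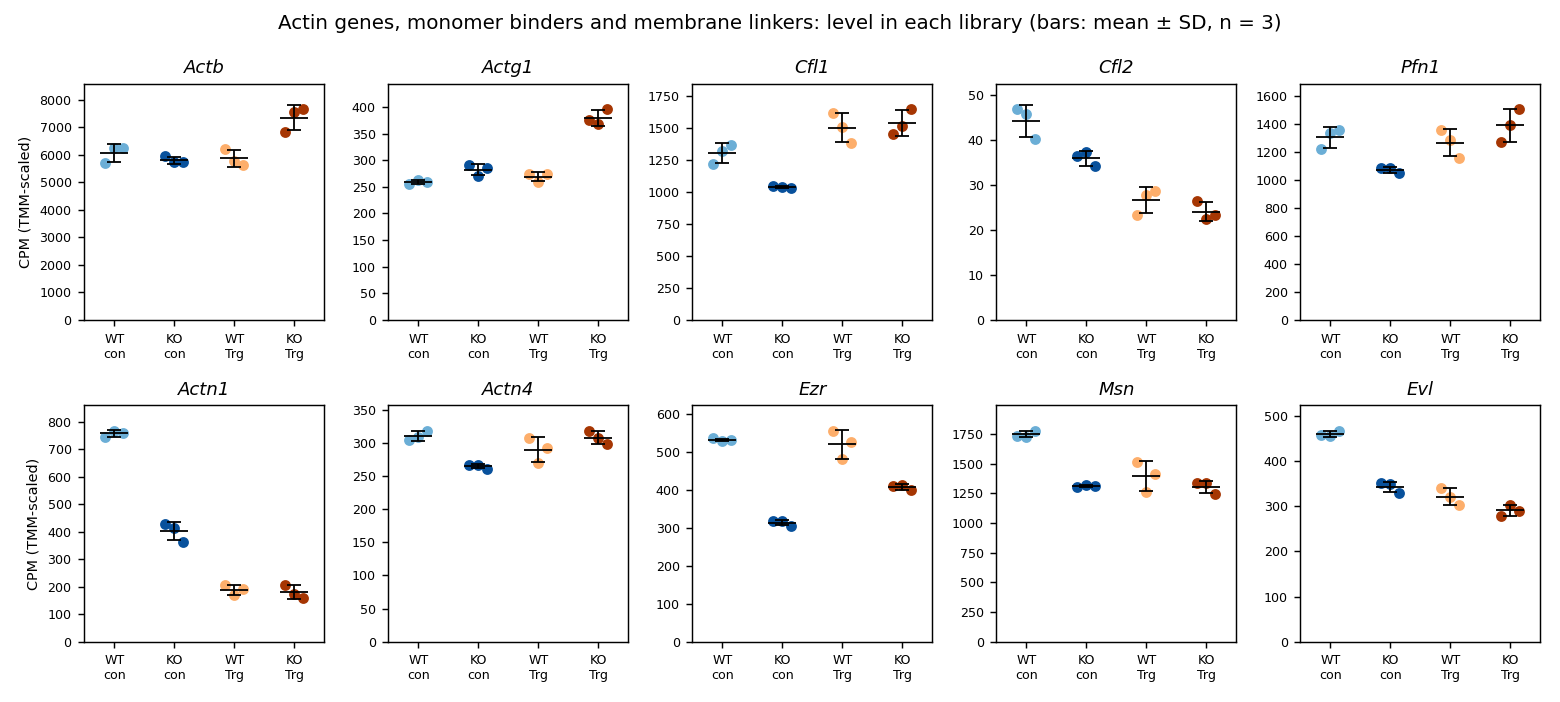
TMM-scaled CPM of each member in each of the 12 libraries (points), with mean ± SD of 3 libraries per group (bars), axes starting at 0. Actb and Actg1 are highest in KO Trg, Cfl1, Pfn1 and Actn4 lowest in KO con, and Ezr lower in both KO groups than in both WT groups.

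In conventional T cells, 8 of the 10 members were called lower and 1 higher in KO than in WT. The 8 were Actn1, Ezr, Evl, Msn, Cfl1, Cfl2, Pfn1 and Actn4, so every monomer binder, cross-linker and membrane linker of the set was included, and Actg1 was the 1 higher. Of all 15922 genes tested, 48.7% were called in this comparison, 25.4% lower and 23.3% higher. The 8 lower members and Actg1 were also those whose libraries did not overlap between genotypes, against 63.6% of all genes. The median log2 fold change was -0.31 over the members and -0.05 over all genes.
Actn1 had the largest change, -0.91 on the log2 scale (SE 0.10, adjusted p = 4.03e-05, edgeR's quasi-likelihood test with Benjamini-Hochberg adjustment), from a mean of 757 to 402 CPM. Ezr followed with -0.76 (SE 0.06, adjusted p = 4.11e-06), from 531 to 313 CPM. Both fell by over 1.5-fold, and no other member did. Evl changed by -0.42 (SE 0.05, adjusted p = 1.06e-04) and Msn by -0.41 (SE 0.07, adjusted p = 8.59e-04). Cfl1, Cfl2, Pfn1 and Actn4 changed by -0.33, -0.30, -0.28 and -0.23, with adjusted p from 0.00407 to 0.0181. Actg1 changed by 0.13 (SE 0.05, adjusted p = 0.0450), and this call was lost when any of 6 libraries was left out. The Cfl2 call was lost without any of 4 libraries and the Pfn1 call without WT con replicate 3 or KO con replicate 3, with adjusted p up to 0.0749 and 0.0569. Actb was not called, with -0.06 and a 95% interval of -0.27 to 0.14.
The T cell genes and the markers of other cells moved in the same comparison. All 6 T cell genes were called lower in KO con. Called higher were 15 of 15 macrophage and monocyte, 12 of 14 neutrophil, 11 of 11 NK cell and 10 of 11 B cell markers. So were 8 of 8 dendritic cell, 5 of 6 erythroid and 4 of 5 regulatory T cell markers. The summed B cell markers overlapped, at 536 to 589 CPM in WT con and 518 to 651 in KO con. Neutrophil markers summed to 9.03 to 16.3 CPM in WT con and 371 to 741 in KO con, and NK cell markers to 72.2 to 113 and 472 to 837. Their part in the members' differences was not tested. In bulk libraries, fewer cells of a type and less RNA of a gene per cell cannot be told apart.

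The direction of the smaller differences rested on how libraries were scaled. When libraries were scaled so that the 6 T cell genes were level, the median of all genes in the conventional comparison moved from -0.05 to 0.53. Of all 15922 genes, 7006 were then called higher and 60 lower. On that scale Actn1 stood at -0.33 and Ezr at -0.17, neither called, the other 6 lower members turned to 0.17 to 0.36 without being called, and Actb (0.53) and Actg1 (0.72) were called higher. Taken relative to the median of all genes on the same scale, Actn1 stood at -0.86, Ezr at -0.70, Evl at -0.37 and Msn at -0.36. Cfl1 stood at -0.27, Cfl2 at -0.25, Pfn1 at -0.22 and Actn4 at -0.17. A change of scaling moves all genes by nearly the same amount, so values relative to the median hardly depend on it. With TMM scaling they were -0.87 for Actn1 and -0.71 for Ezr. They do not show that a call outlasts the change of scale. On plain CPM with no scaling factor, a setting chosen after seeing the data, the median of all genes was 0.13, and 4 members (Actn1, Ezr, Msn, Evl) stayed called lower.

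**Figure D3:**
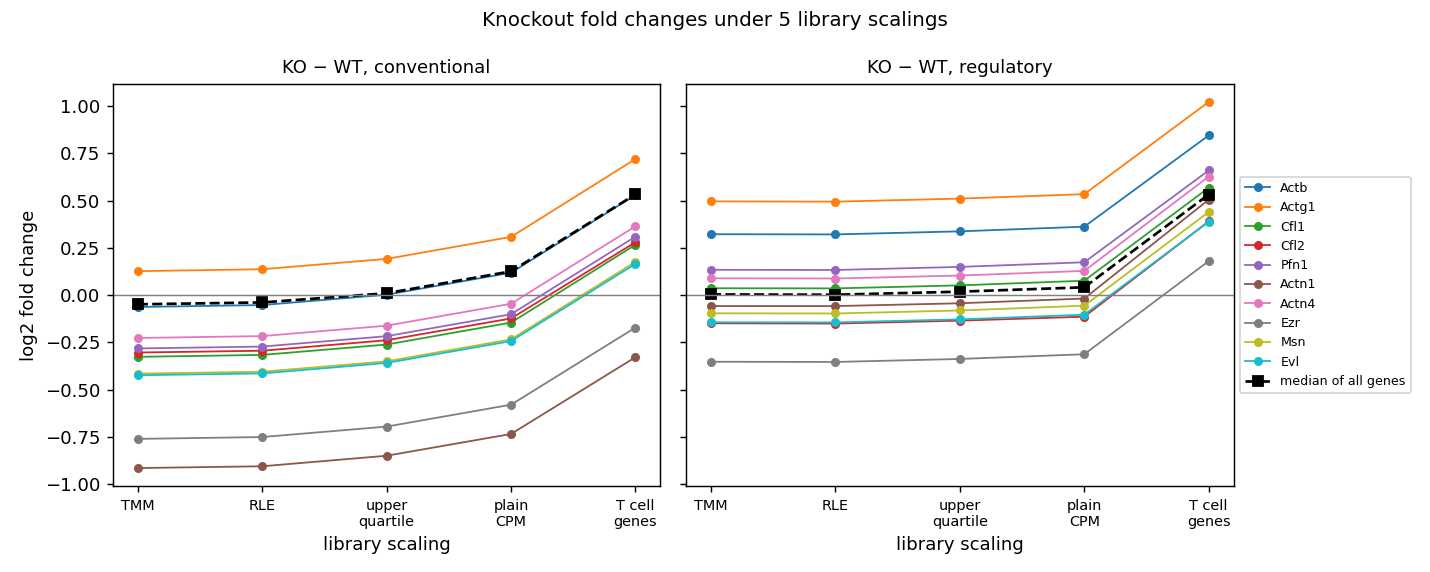
Log2 fold change of each member (coloured lines) and of the median gene (black squares) between KO and WT under 5 library scalings, for conventional (left) and regulatory cells (right). Scaling to 6 T cell genes lifts all values together, to a median of 0.53 in both panels, so that 7 members on the left and 5 on the right pass from below to above 0.

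In regulatory T cells 2 members were called between KO and WT with TMM scaling, Actg1 higher and Ezr lower. All genes were called in 7.83% (4.01% higher, 3.82% lower). Actg1 changed by 0.50 on the log2 scale (SE 0.05, adjusted p = 6.70e-04), from 269 to 380 CPM in the mean. Ezr changed by -0.35 (SE 0.06, adjusted p = 0.00567), from 519.7 to 407 CPM, and turned to 0.18, not called, with T cell gene scaling. Relative to the median of all genes on that scale, which was again 0.53, Ezr stood at -0.35 and Actg1 at 0.49. These values hardly depend on scaling, as said above, and were -0.36 and 0.49 with TMM scaling. The Ezr call was also lost when the fit held only the compared groups (adjusted p = 0.0686). Actb missed the threshold at 0.32 (SE 0.09, adjusted p = 0.0572), with an interval of 0.12 to 0.53, although its KO libraries lay above its WT libraries. The other 4 scalings in edgeR each called Actb, at adjusted p = 0.0447 with RLE, 0.0481 with upper quartile, 0.0269 on plain CPM and 0.00924 with T cell gene scaling. DESeq2 called it too (0.32, adjusted p = 1.46e-06) and also called Evl (-0.14, adjusted p = 0.0180). Groups did not overlap for 4 members, Actb, Actg1, Ezr and Evl, against 26.2% of all genes.
With TMM scaling the other members had these values and intervals. Cfl1 stood at 0.04 (95% interval -0.14 to 0.21), Pfn1 at 0.13 (-0.05 to 0.32), Cfl2 at -0.15 (-0.36 to 0.06), Actn1 at -0.06 (-0.28 to 0.16), Actn4 at 0.09 (-0.03 to 0.20) and Msn at -0.10 (-0.26 to 0.06). With T cell gene scaling, where all genes had a median of 0.53, Pfn1 stood at 0.66 (adjusted p = 0.0206), Actn4 at 0.63 (0.0373) and Cfl1 at 0.57 (0.0320), all called higher, and Cfl2, Actn1 and Msn at 0.39 to 0.50, not called. Of all 15922 genes, 5116 were called higher and 41 lower with T cell gene scaling. The median with TMM scaling was -0.01 over the members and 0.00 over all genes. Actg1 and Ezr were the 2 members called in the same direction in both cell types. Of all genes, 2.41% were called higher in KO in both and 2.7% lower in both. Of other-cell markers, 3 of 6 stroma and endothelium, 5 of 14 neutrophil and 3 of 11 NK cell ones were called higher. The macrophage and monocyte list had 0 of 15 called higher, and 1 of 6 T cell genes was called lower. The part of these genes in the members' differences was not tested.

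The knockout effect differed between the cell types for 8 of the 10 members by the test of that difference, and in the same direction for all 8. In each, the KO-minus-WT value was higher in regulatory than in conventional cells. Of all genes, 21.3% were called for this difference, 8.86% with the higher and 12.4% with the lower value in regulatory cells. Actn1 had the largest difference, 0.86 on the log2 scale (SE 0.14, adjusted p = 0.00220), from -0.91 in conventional to -0.06 in regulatory cells. Pfn1 differed by 0.42 (SE 0.12, adjusted p = 0.0271), Ezr by 0.41 (SE 0.08, adjusted p = 0.00496) and Actg1 by 0.37 (SE 0.07, adjusted p = 0.00351). Cfl1, Msn, Actn4 and Evl differed by 0.36, 0.32, 0.32 and 0.28, with adjusted p from 0.0121 to 0.0483. Actb (0.38, adjusted p = 0.0577) and Cfl2 (0.15, adjusted p = 0.445) were not called. The median difference was 0.37 over the members and 0.02 over all genes. In the same test 11 of 11 NK cell, 10 of 11 B cell, 9 of 15 macrophage and monocyte, 8 of 14 neutrophil, 6 of 8 dendritic cell, 5 of 6 erythroid and 3 of 5 regulatory T cell markers had the lower value in regulatory cells, and 0 of 6 T cell genes were called. Their part was not tested.
With T cell gene scaling no member was called for the difference, with values between 0.11 and 0.83 and a median of -0.04 over all genes, of which 5.97% were called. On plain CPM 3 were called (Actn1, Actg1, Ezr), where the median of all genes was -0.13. The calls of Msn and Cfl1 were lost when any of 11 and any of 9 libraries was left out, that of Pfn1 when any of 5 was, that of Evl when any of 3 was, and that of Actn4 without KO Trg replicate 2. Without KO Trg replicate 2, 3 members were called, the fewest for any library left out, against 14.2% of all genes. Without WT con replicate 3 or KO con replicate 3, 4 were called, against 14.4% and 14.5% of all genes. Without WT con replicate 2 or KO Trg replicate 3, 5 were called, against 14.7% and 16.2%.

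**Figure D4:**
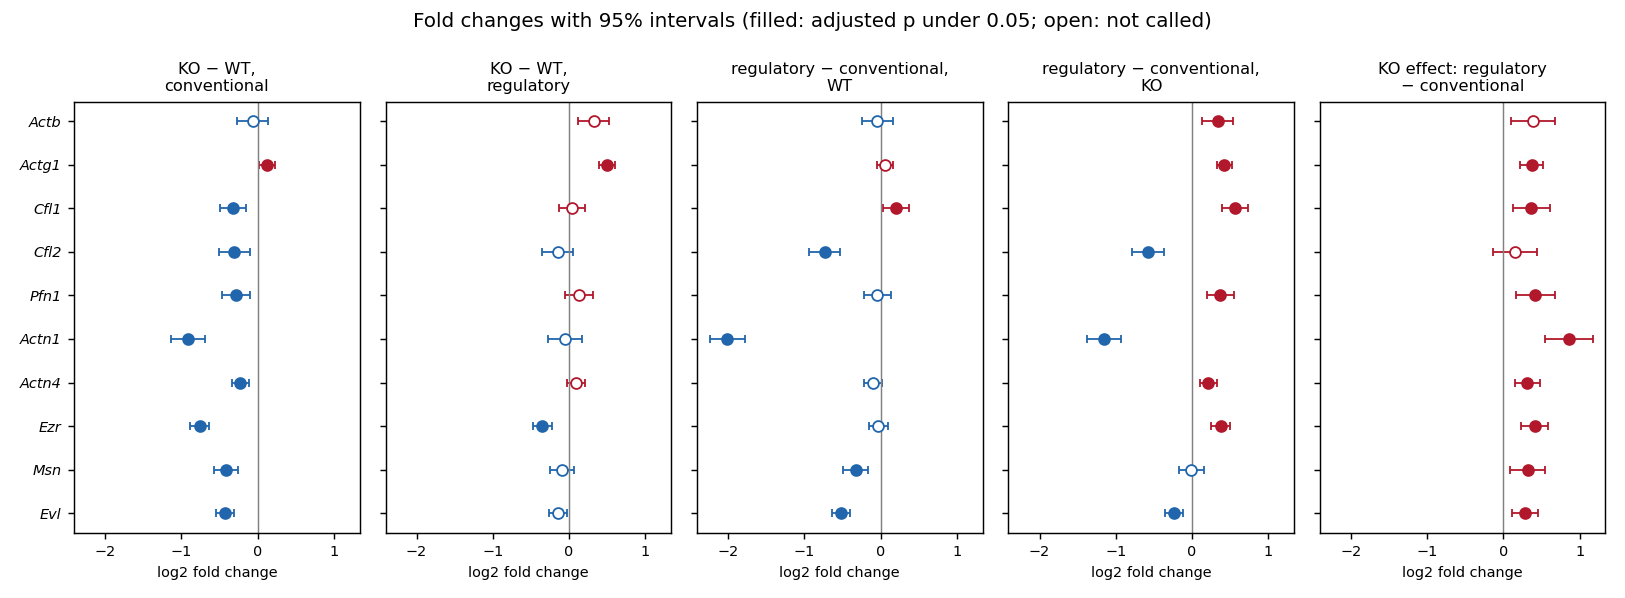
Log2 fold change of each member in the 5 comparisons with 95% intervals, filled where adjusted p was under 0.05 and red above or blue below 0, with TMM scaling. In conventional cells 9 members lie below 0, 8 of them called (2 of the 9 still lie below with T cell gene scaling), in regulatory cells Actg1 and Ezr are the called ones, and all 10 values in the last panel are above 0.

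Between cell types in WT, 5 members were called, 4 lower and 1 higher in regulatory than in conventional cells. All genes were called in 72.4% (33.3% lower, 39.1% higher). Actn1 stood out in size, at -2.01 on the log2 scale (SE 0.10, adjusted p = 3.02e-08), from 757 to 188 CPM. It remained called lower with T cell gene scaling (-1.37). Cfl2 changed by -0.73 (SE 0.09), Evl by -0.52 (SE 0.05) and Msn by -0.33 (SE 0.07), with adjusted p of 0.00184 or less, and with T cell gene scaling these stood at -0.08, 0.12 and 0.32, none called. On that scale, where the median of all genes was 0.71, Actb, Actg1, Cfl1, Pfn1, Actn4 and Ezr were called higher, at 0.54 to 0.84. Of all 15922 genes, 9127 were called higher and 966 lower on that scale. Cfl1 changed by 0.20 (SE 0.08, adjusted p = 0.0341), and this call was lost without any of 4 libraries. Actb, Actg1, Pfn1, Actn4 and Ezr lay between -0.10 and 0.06 and were not called. The 5 called members were those whose groups did not overlap, against 75.3% of all genes.
In KO, 9 members were called, 6 higher (Cfl1, Actg1, Ezr, Pfn1, Actb, Actn4) and 3 lower (Actn1, Cfl2, Evl), against 67.8% of all genes (36.1% higher, 31.7% lower). The same 9 did not overlap between groups, against 72.7% of all genes. Cfl1 changed by 0.57 (SE 0.08, adjusted p = 6.14e-05), Actg1 by 0.43 (SE 0.05), Ezr by 0.38 (SE 0.06), Pfn1 by 0.37 (SE 0.08), Actb by 0.34 (SE 0.09) and Actn4 by 0.22 (SE 0.05). Without KO Trg replicate 2 the calls of Actb and Actn4 were lost, at adjusted p = 0.05001 and 0.0705. Actn1 changed by -1.15 (SE 0.10, adjusted p = 2.12e-06), Cfl2 by -0.58 (SE 0.09) and Evl by -0.24 (SE 0.05), and with T cell gene scaling these stood at -0.53, 0.03 and 0.34, none called. On that scale, with a median of 0.62 over all genes, the 6 higher members and Msn were called higher, at 0.58 to 1.14. Of all 15922 genes, 8296 were called higher and 1074 lower on that scale. Msn stood at -0.01 with TMM scaling, with an interval of -0.17 to 0.15. Cfl1 was thus called higher in regulatory cells in both genotypes, as were 29% of all genes, and Actn1, Cfl2 and Evl lower in both, as were 25.8%. The KO-against-WT and regulatory-against-conventional comparisons share libraries pairwise, so their values are not independent of each other.
B cell and erythroid markers moved with cell type. All 11 B cell and all 6 erythroid markers were called higher in regulatory than in conventional cells in both genotypes, and the erythroid ones summed to 6.03 to 76.1 CPM in con and 5044 to 9214 in Trg libraries. In WT, 14 of 15 macrophage and monocyte, 8 of 8 dendritic cell and 11 of 14 neutrophil markers were also called higher, and 5 of 6 T cell genes and 6 of 6 platelet markers lower. In KO, 6 of 8 dendritic cell markers were called higher, and 4 of 6 T cell genes, 5 of 6 platelet and 11 of 11 NK cell markers lower. Of the stroma and endothelium markers, 5 of 6 were called higher in each genotype. Mitochondrial genes took 1.44% to 2.33% of gene counts in con and 5.16% to 8.15% in Trg libraries. Reads on no annotated feature made up 13.3% to 15.7% in con and 4.98% to 6.87% in Trg libraries, and reads mapping to several places were more frequent in Trg libraries, as given above. Xist and Y-linked reads were also spread differently over con and Trg libraries, as given above, and Msn lies on chrX. The part of any of these in the members' differences was not tested.

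Ratios between related members within a library do not depend on how libraries are scaled. Msn had 325, 328 and 335 reads per 100 Ezr reads in the WT con libraries and 411, 414 and 429 in KO con. In WT Trg it had 273, 263 and 269, and in KO Trg 326, 323 and 312. The ratio was higher in KO without overlap in both cell types, by 1.27 and 1.20 times in the means, and lower in regulatory cells without overlap in both genotypes. Actg1 had 4.48, 4.195 and 4.15 reads per 100 Actb reads in WT con and 4.88, 4.73 and 4.99 in KO con. WT Trg libraries had 4.401, 4.49 and 4.87, and in KO Trg 5.49, 4.86 and 5.17. KO con lay above WT con, by 1.14 times, while in regulatory cells 1 KO library fell just inside the WT range.
Actn4 had 40.7, 40.2 and 41.8 reads per 100 Actn1 reads in WT con and 62.2, 64.8 and 71.6 in KO con. Regulatory libraries had 149, 159 and 153 in WT and 153, 175 and 188 in KO. The balance of the alpha-actinins thus ran toward Actn4 in KO con, by 1.62 times, and in regulatory cells, by 3.76 times in WT and 2.60 times in KO. Cfl2 had 3.42 ± 0.46 reads per 100 Cfl1 reads in WT con (SD, n = 3), 3.45 ± 0.13 in KO con, 1.79 ± 0.32 in WT Trg and 1.57 ± 0.22 in KO Trg. The cofilin ratio overlapped between genotypes in both cell types and separated the cell types without overlap.

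**Figure D5:**
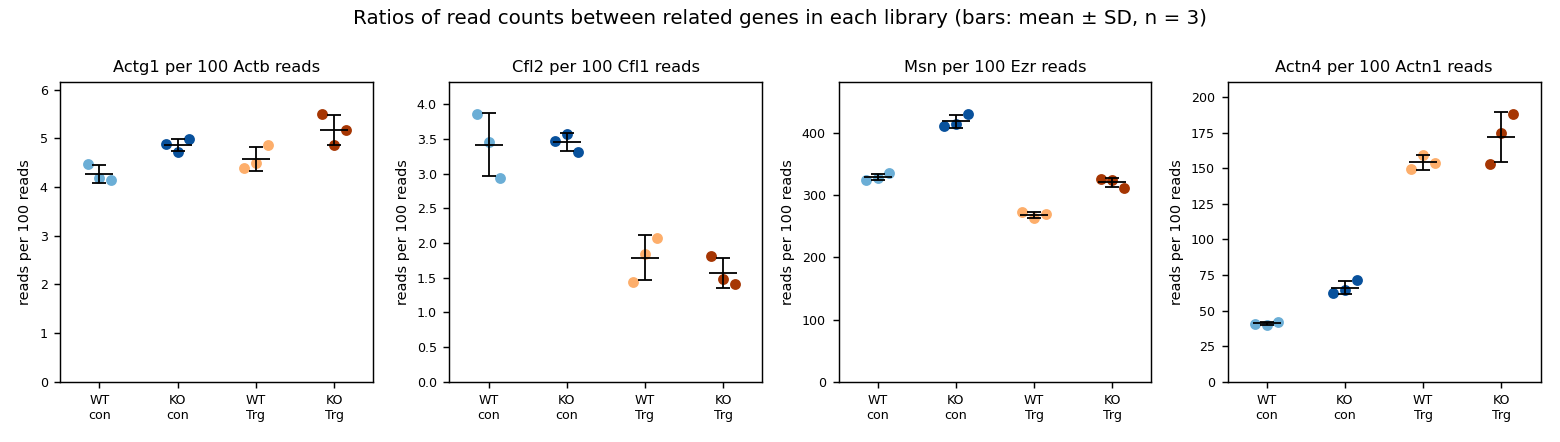
Reads of 1 gene per 100 reads of its relative in each library (points), with mean ± SD of 3 libraries per group (bars), axes starting at 0. Msn per 100 Ezr reads is higher in KO in both cell types, and Actn4 per 100 Actn1 reads is higher in KO con than in WT con and highest in the Trg groups.

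Beyond the 10 members, 88 of 96 other actin-related genes were tested, in 10 lists. In conventional cells 24 were called higher and 32 lower in KO, against 23.3% and 25.4% of all genes. Their median was -0.05, and also -0.05 over all genes. With T cell gene scaling 46 were called higher and 0 lower, against 7006 and 60 of all 15922 genes. The lists were chosen with results of these data known.
Of 12 other monomer binders and depolymerising factors, 3 were called higher and 5 lower. The twinfilin gene Twf2, which caps filaments and binds monomers, changed by -0.39 (SE 0.07), and Dstn, destrin, by 1.34 (SE 0.26). Of 8 kinases and phosphatases of cofilin, 2 were higher and 3 lower, among them the slingshot phosphatase gene Ssh2 at -0.39 and the kinase gene Limk2 at -0.30. Srf and its partner gene Mrtfa changed by -0.26 (SE 0.04) and -0.36 (SE 0.05), 2 of 3 in that list. Of 9 kinases and surface partners of ezrin and moesin, 1 was higher and 5 lower. Cd44, an adhesion receptor bound by both, changed by 1.26 (SE 0.10) and Icam2 by -0.78 (SE 0.06). The third member of the ezrin family, the radixin gene Rdx, changed by -0.29 (SE 0.05, adjusted p = 4.47e-04), from 175 to 144 CPM. It was named after its values were seen. With T cell gene scaling Twf2, Ssh2, Limk2, Srf, Mrtfa, Icam2 and Rdx were not called, and of these Icam2 alone stayed below 0.
Of 10 severing and capping proteins 4 were higher and 3 lower, of 10 formins and Ena/VASP proteins 2 and 3, of 12 bundling proteins 5 and 4, of 12 adhesion linkers 3 and 4, and of 10 myosin II and tropomyosin genes 2 and 3. Tpm3, a tropomyosin gene, changed by -0.53 (SE 0.05; 0.06 and not called with T cell gene scaling), and Zyx, zyxin of adhesion sites, by 0.64 (SE 0.08). The smooth muscle actin genes Actg2 and Acta2 were called higher in KO in both cell types but were low. Actg2 stood at 0.79 ± 0.12 CPM in WT con and 10.6 ± 3.5 in KO con (SD, n = 3). In Trg it stood at 5.19 ± 0.20 in WT and 30.6 ± 8.7 in KO. Of 6 stroma and endothelium markers, 3 were called higher in KO in regulatory cells. In conventional cells 2 were called higher and 1 lower. Their part was not tested.

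In regulatory cells 14 of the 88 were called higher in KO and 3 lower, against 4.01% and 3.82% of all genes. With T cell gene scaling 60 were called higher and 0 lower, against 5116 and 41 of all 15922 genes. Cotl1, whose product binds filaments and is related to the cofilins, changed by 0.53 (SE 0.07, adjusted p = 0.00216), from 630 ± 40 to 910 ± 59 CPM. Fscn1, fascin, a bundling protein, changed by 2.14 (SE 0.31), from 33.4 ± 4.0 to 148 ± 53 CPM. Zyx changed by 0.48 (SE 0.08), Gsn, gelsolin, by 0.38 (SE 0.09), and Myh9, the heavy chain of non-muscle myosin, by 0.33 (SE 0.08). Gmfb changed by -0.24 (SE 0.04), and stood above 0 and was not called with T cell gene scaling. None of the 8 cofilin kinases and phosphatases and none of the 3 SRF and MRTF genes was called, with Srf at 0.13 (adjusted p = 0.0738).
For the difference of knockout effects, 25 were called with the higher and 10 with the lower value in regulatory cells. The shares of all genes were 8.86% and 12.4%. With T cell gene scaling 0 and 4 were called, against 30 and 921 of all 15922 genes. Srf differed by 0.39 (SE 0.06, adjusted p = 0.00105), Mrtfa by 0.37 (SE 0.07), Cotl1 by 0.56 (SE 0.10), Wdr1, an actin-interacting cofactor of cofilin, by 0.41 (SE 0.08), and Ssh2 by 0.43 (SE 0.08). Icam2 differed by 0.66 (SE 0.09) and Cd44 by -1.24 (SE 0.14). Between cell types, 31 were higher and 36 lower in regulatory cells in WT, against 39.1% and 33.3% of all genes. With T cell gene scaling these were 50 and 4, against 9127 and 966 of all 15922 genes. In KO 42 were higher and 25 lower, against 36.1% and 31.7%. There T cell gene scaling gave 56 and 2, against 8296 and 1074 of all genes. Plain CPM gave 31 and 32, against 4801 and 6104. Capg, a capping protein, was higher by 3.02 (SE 0.12) in WT and 2.53 (SE 0.12) in KO. Ssh2 was at -1.24 in WT and -0.81 in KO, and Myh9 at -0.88 in WT.

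Each member's level across the 12 libraries was set beside those of all genes of 10 CPM or more, as a description. All libraries share their group structure and scaling, so a high correlation says that genes separate the groups alike. Actb was most like Cotl1 (Pearson r = 0.96 over 12 libraries) and Actg1 most like Pi4k2a (0.95). Cfl1 was most like the ribosomal protein genes Rpl7 and Rps18 (both 0.99 or more), and Pfn1 like Hsp90aa1 and Rpl8 (both 0.97). Of the genes reported here, Mex3d was like Ezr (0.97). Actn1 was most like Tbc1d16 (0.997) and Smg1, Evl like Dhx15 (0.995) and Pprc1, Cfl2 like Mrps10 (0.99) and Trmt13, Msn like Kat14 (0.97) and Zbtb4, and Actn4 like Prpf8 (0.94) and Treml2. Among the members themselves r ran from -0.70 (Actg1 and Evl) to 0.95 (Cfl2 and Actn1).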

How the data were processed

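The authors deposited raw counts for 12 libraries in 1 table, with Ensembl IDs for 45706 genes and 4 tallies (unmapped, several places, no feature, ambiguous). The tallies stayed out of library sizes. Reads had been aligned against GRCm38 using STAR, per the submitters' processing notes, and counting was reverse-stranded, per the file name. The annotation release is not given in the sources used here.

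The members and all gene lists were chosen with earlier results of these data known. R 4.3.3 and edgeR 4.0.16 were used. A single quasi-likelihood model covered all 4 groups, after filterByExpr (minimum count 10, minimum total 15) and TMM scaling. Tests were two-sided F tests, adjusted by Benjamini-Hochberg over 15922 genes, and a gene was called at adjusted p under 0.05. The SE of a log2 fold change was its size over the root of F. The 5 comparisons were repeated under RLE, upper-quartile and T cell gene scaling, by DESeq2 1.42.0 and limma-voom 3.58.1, without the filter, at a mean of 5 CPM or more, on the compared groups alone, with a replicate block, without each library in turn, without 2 libraries together, and with stricter calls (adjusted p under 0.01, or at least 1.5-fold). Plain CPM was added after seeing the data. The model was also run on simulated counts in which a set of genes was changed, equally up and down, in KO con only. That setting held no shift of most genes, so it does not bear on how libraries should be scaled here.

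Named were Coro1a, all members, up to 2 genes with the smallest p per list and comparison, and the 2 genes most like each member (Pearson r of log2 CPM with a prior count of 2, mean of 10 CPM or more). A gene that this rule names is not reported here. Gene positions and exon lengths came from GENCODE on GRCm38. Plots used matplotlib 3.10.9 in Python 3.11.15.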

Additional observations from a re-analysis of the deposited data

Results flagged for a closer look

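The knockout effect differed between regulatory and conventional cells, by the test of the difference itself (edgeR's quasi-likelihood test, Benjamini-Hochberg adjusted), for 8 of the 10 genes. Of all 15922 genes tested, 21.3% were called for this difference, 8.86% with the higher and 12.4% with the lower value in regulatory cells. The value is the log2 fold change of KO against WT in regulatory cells minus that in conventional cells. It was 0.86 for Actn1 (adjusted p = 0.0022), 0.42 for Pfn1 (0.0271), 0.41 for Ezr (0.00496), 0.37 for Actg1 (0.00351), 0.36 for Cfl1 (0.0381), 0.32 for Actn4 (0.0121), 0.32 for Msn (0.0483) and 0.28 for Evl (0.0232). For Actn1, Pfn1, Cfl1, Actn4, Msn and Evl the conventional comparison was called and the regulatory one was not, for Ezr both were called lower, and for Actg1 both were called higher. With T cell gene scaling none of the 8 was called, against 5.97% of all genes. The values were 0.83 for Actn1, 0.35 for Pfn1 and Ezr, 0.30 for Actg1 and Cfl1, 0.26 for Actn4 and Msn and 0.22 for Evl. With TMM scaling the calls of Msn, Cfl1, Pfn1, Evl and Actn4 were each lost when certain single libraries were left out, as given above. Leaving out 1 library gave 3 to 9 called members, against 14.2% to 23.4% of all genes.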

How the results depend on the processing

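Counts of called members were 9, 2, 5 and 9 in the comparisons of KO with WT in conventional and in regulatory cells and of regulatory with conventional cells in WT and in KO, and 8 for the difference of knockout effects. T cell gene scaling gave 2 in conventional cells, 5 in regulatory cells and 0 for the difference (44.4%, 32.4% and 5.97% of all genes), and plain CPM gave 5 in conventional cells and 3 for the difference (39.3% and 19.3%). A 1.5-fold minimum gave 2, 0, 2, 1 and 1 in the same order. In regulatory cells DESeq2 gave 4 (12.6% of all genes) and the fit of only the compared groups 1 (2.08%). For the difference, upper-quartile scaling gave 5 (19.2%) and a threshold of 0.01 gave 3. Leaving out 1 library gave 6 to 9, 2 to 2, 4 to 5, 7 to 9 and 3 to 9. The shares of all genes called then moved too. For KO against WT they ran from 37.3% to 49.8% in conventional and 2.7% to 12.1% in regulatory cells. Between cell types they ran from 66.6% to 72.4% in WT and 61.8% to 68.2% in KO. For the difference they ran from 14.2% to 23.4%. The shares of all genes at the 1.5-fold minimum and at 0.01 are not given here. Except for the replicate block, given below, other alternatives stayed within 1.5 times. The causes were not tested.

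With the replicate block the difference called 5 members (17.3% of all genes), without Cfl1, Pfn1 and Msn, and the calls of Actg1 in conventional cells and of Cfl1 between cell types in WT were lost, with no other call changed. Correlations of same-numbered libraries ran from -0.52 to 0.18, and in each pair of groups 0 to 2 of 3 libraries correlated best with their own number. With 3 libraries per group these values can neither show nor exclude pairing. By Xist and Y-linked reads, the numbers matched between WT con and KO con but not between WT Trg and KO Trg. The labels do not say that a number marks a shared animal or day, so the main fit had no block.

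With T cell gene scaling the sign turned as follows. In KO against WT in conventional cells, values became Actb 0.53, Cfl1 0.27, Cfl2 0.28, Pfn1 0.31, Actn4 0.36, Msn 0.18 and Evl 0.17. In regulatory cells they became Cfl2 0.39, Actn1 0.50, Ezr 0.18, Msn 0.44 and Evl 0.39. Between cell types in WT they became Actb 0.59, Pfn1 0.59, Actn4 0.54, Ezr 0.61, Msn 0.32 and Evl 0.12, and in KO Cfl2 0.0278, Msn 0.58 and Evl 0.34. The other reversals were of values near 0 that were not called. Actb in conventional cells became 0.00233 with upper-quartile scaling, 0.12 on plain CPM, 0.0539 at a mean of 5 CPM or more and 0.0117 with only the compared groups. Between cell types in WT, a mean of 5 CPM or more gave Actb 0.00705, Pfn1 0.00859 and Ezr 0.0218, the compared groups alone gave Ezr 0.0103, and leaving out both libraries with Xist and Y-linked reads gave Pfn1 0.0207. Msn between cell types in KO became 0.00118 with RLE and 0.00117 with DESeq2. With 1 library left out, KO against WT in regulatory cells ranged from -0.0195 to 0.0893 for Cfl1 and -0.17 to 0.0269 for Actn1. Cell types in WT ranged from -0.0926 to 0.0174 for Pfn1 and -0.0810 to 0.0220 for Ezr, and in KO from -0.10 to 0.0276 for Msn.

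Depth limits Cfl2 most, with 430 counts in its lowest library.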
